A study of Mus musculus with 16 samples.

Results

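The unfolded protein response genes described here are a list of 10 genes: 7 chaperones and folding enzymes of the endoplasmic reticulum (Hspa5, Hsp90b1, Calr, Pdia4, Pdia6, Sdf2l1 and Dnajb9) and 3 stress transcription factors (Xbp1, Atf4 and Ddit3). They are 10 of the 17427 genes that the tables of both tumor sites share, and all 10 were measured in all 16 libraries and passed the filter on low values in every comparison. The libraries come from 4T1 tumors, a triple-negative mouse mammary carcinoma line grown in wild-type (WT) female BALB/c mice aged 6 weeks. The post_Liver group (5 libraries) holds tumors injected directly under the capsule of the left liver lobe (200000 cells in 20 µL), in mice given paclitaxel, a drug that stabilises microtubules, into the peritoneum at 10 mg/kg, 5 times a week for 2 weeks, and the pre_Liver group (5 libraries) holds the same tumors without paclitaxel. The post_SC group (3 libraries) holds tumors of the fourth mammary fat pad on the right side (400000 cells in 100 µL) after the same paclitaxel course, and the pre_SC group (3 libraries) holds fat pad tumors without it. Tumors of both sites grew for 15 days and were digested with collagenase, DNase and hyaluronidase. The frozen cells gave poly(A) RNA with an integrity number above 7, and the suspensions still held host cells of each organ. The labels do not say whether the pre libraries are the PBS controls or tumors taken before dosing, nor that every library came from its own mouse, so a p-value here reflects the scatter among the libraries given. The liver model is a direct injection with no spread from a primary tumor, and site and number of implanted cells cannot be told apart.

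The endoplasmic reticulum folds secreted and membrane proteins, and when unfolded protein accumulates there the unfolded protein response is switched on by sensors in its membrane. IRE1 splices the Xbp1 mRNA into the form that encodes an active transcription factor, PERK slows translation and lets Atf4 be translated, which in turn induces Ddit3 (CHOP), and ATF6 is cut in the Golgi to release a factor that induces chaperone genes such as Hspa5 (BiP). Secretory cells, among them hepatocytes and plasma cells, run parts of this programme as part of their normal work. Gene-level values do not separate spliced from unspliced Xbp1 mRNA, and Atf4 activity is set largely by translation, which RNA levels do not show.

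A promoter sequence known from chaperone genes of this compartment is the endoplasmic reticulum stress element, to which ATF6 binds together with NF-Y. It was searched as CCAAT, then 9 bases of any kind, then CCACG, on both strands of the promoter windows of RefSeq (GRCm38.p6, 250 bases before to 50 after the start), with overlapping matches allowed. The element was present in 39 of 32851 windows (0.119%) and in 4 of the 10 members, while the CCAAT box alone was present in 37.4% of windows and in 9 of the 10 members, Xbp1 being the one without it. Because the element is known from such chaperone genes, its share among the members is not an independent result. Of the 4 genes with it, Hspa5, Calr and Hsp90b1 were called lower in the fat pad tumors after paclitaxel and Pdia6 was not called. There, 4.29% of all genes tested were called lower. Sdf2l1 and Ddit3, whose windows lack the element, were also called lower, and of 11 other tested genes with the element 0 were called. The 5 matches are shown 5′ to 3′ in the direction of the element, with the CCAAT and CCACG parts in capitals.
Hspa5, chr2:34772025-34772043, same strand as the gene, 46 bases before the start: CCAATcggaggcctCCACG
Calr, chr8:84847075-84847093, opposite strand, 143 bases before the start: CCAATgagggtcgaCCACG
Hsp90b1, chr10:86705638-86705656, same strand as the gene, 193 bases before the start: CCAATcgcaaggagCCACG
Hsp90b1, chr10:86705533-86705551, opposite strand, 88 bases before the start: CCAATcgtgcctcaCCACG
Pdia6, chr12:17266491-17266509, same strand as the gene, 79 bases before the start: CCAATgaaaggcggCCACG

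The 200 bases before the start of Hspa5 and Sdf2l1 are shown beside each other because both genes were called lower after paclitaxel in fat pad tumors and only the window of Hspa5 holds the full element. They are written in the direction of the gene, with every CCAAT box (ATTGG where it lies on the opposite strand) and the CCACG of the element in capitals.
Hspa5, chr2:34771890-34772089, plus strand: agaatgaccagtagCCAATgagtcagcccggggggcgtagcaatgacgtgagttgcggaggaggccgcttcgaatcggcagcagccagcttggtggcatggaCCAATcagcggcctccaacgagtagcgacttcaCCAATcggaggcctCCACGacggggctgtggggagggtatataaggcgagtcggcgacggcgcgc
Sdf2l1, chr16:17132384-17132583, minus strand: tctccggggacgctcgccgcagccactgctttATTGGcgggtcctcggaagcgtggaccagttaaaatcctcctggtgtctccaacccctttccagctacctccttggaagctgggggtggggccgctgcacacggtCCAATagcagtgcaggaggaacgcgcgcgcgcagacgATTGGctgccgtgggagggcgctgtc
The RefSeq start of Hspa5 used for the window lies inside the GENCODE span of the gene given below, so the last part of its stretch, the element included, falls within that span. A match is a description of the letters, and its absence says only that these letters are not in the window.

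The read depth behind each value is unknown, because the deposited values are normalized. Host RNA differed between libraries and is given here once for the results below. The summed level of 30 hepatocyte genes was 5931 to 142369 TPM in post_Liver, 51466 to 209680 TPM in pre_Liver, 236 to 340.3 TPM in post_SC and 388 to 550.4 TPM in pre_SC. The summed level of 8 neutrophil genes was 3078 to 20148 TPM in post_Liver, 168 to 1366 TPM in pre_Liver, 75.7 to 97.1 TPM in post_SC and 84.6 to 278 TPM in pre_SC. The carcinoma epithelium list (10 genes, among them Epcam and Krt8) summed to 1177 to 4248 TPM in post_Liver, 594 to 3423 TPM in pre_Liver, 4899 to 5849 TPM in post_SC and 5609.6 to 5772 TPM in pre_SC, and Epcam was above 0 in every library (22.3 to 1093 TPM). In bulk samples, fewer cells of a type and less RNA per cell cannot be told apart. Libraries post_Liver 2 and 3 were close to each other: 0.418% of 11495 genes differed more than 2-fold between them, against 1.52% of 10847 genes for the next closest pair, pre_Liver 4 and 5. They are kept as separate libraries below and were also averaged into 1 where a result rests on them.

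The 10 genes covered a wide range of levels, given here in TPM computed over the shared genes, a unit that is per length and so allows genes to be compared. Calr, a calcium-binding lectin chaperone (chr8:84841850-84846934, minus strand, GENCODE on GRCm38, as for the genes below), was the most abundant member by group mean in all 4 groups, with 1054 ± 287 TPM in post_Liver, 1232 ± 286 TPM in pre_Liver, 632 ± 106 TPM in post_SC and 1155 ± 68.7 TPM in pre_SC (SD, n = 5, 5, 3 and 3). Hspa5, the Hsp70 chaperone that also holds the stress sensors inactive (chr2:34771970-34777547, plus strand), had 716 ± 148 TPM in post_Liver, 626 ± 139 TPM in pre_Liver, 545 ± 37.4 TPM in post_SC and 865 ± 58.2 TPM in pre_SC. Hsp90b1 (GRP94), the Hsp90 chaperone of the compartment (chr10:86690209-86705509, minus strand), had a spread that overlapped that of Hspa5 in both liver groups and not in the fat pad groups, with 592 ± 168 TPM in post_Liver, 681 ± 185 TPM in pre_Liver, 369.5 ± 67.3 TPM in post_SC and 626 ± 96.7 TPM in pre_SC. Together the 7 chaperones summed to 2142 to 4024 TPM in post_Liver, 2439 to 4234 TPM in pre_Liver, 1755 to 2227 TPM in post_SC and 3069 to 3346 TPM in pre_SC.

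The least abundant member differed by site. Ddit3, the pro-apoptotic transcription factor CHOP (chr10:127290774-127296288, plus strand), was lowest of the 10 in both liver groups, with 30.2 ± 8.94 TPM in post_Liver and 19.2 ± 8.92 TPM in pre_Liver. Sdf2l1, a small cofactor of Hspa5 (chr16:17130138-17132383, minus strand), was lowest in both fat pad groups, with 14.0 ± 1.43 TPM in post_SC and 31.8 ± 2.74 TPM in pre_SC. Ranked among all shared genes, Sdf2l1 stood at a median rank of 1830.5 in post_Liver, 2493 in pre_Liver, 8114 in post_SC and 5000 in pre_SC, the widest movement of a chaperone in this list. Xbp1 (chr11:5520659-5525893, plus strand) stood at a median rank of 316 in post_Liver, 634 in pre_Liver, 835 in post_SC and 1307.5 in pre_SC.

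**Figure D1:**
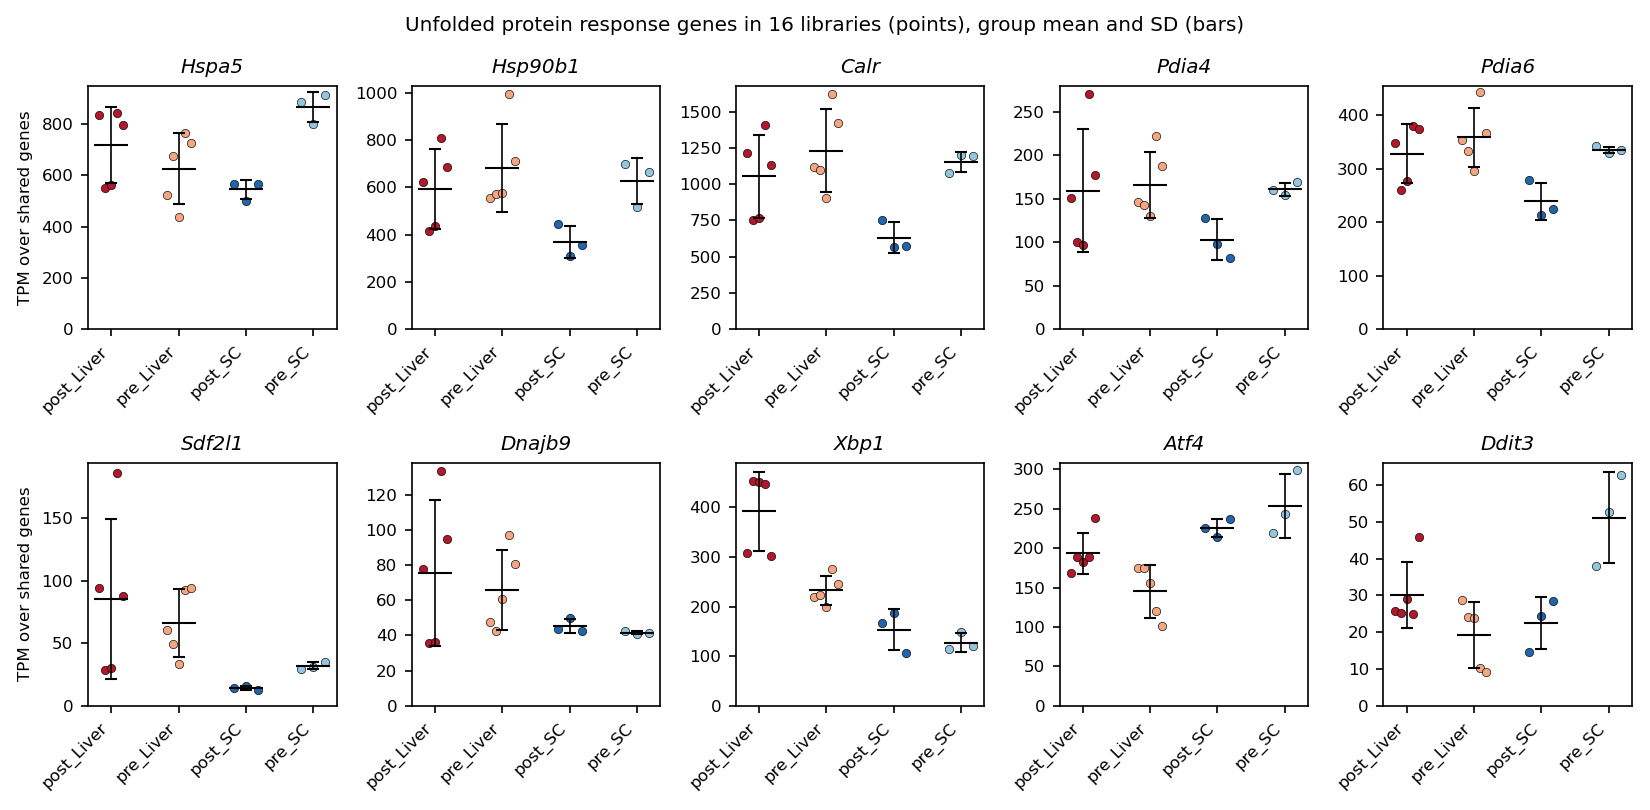
Level of each of the 10 genes in TPM over the shared genes (vertical axis, from 0) in post_Liver, pre_Liver, post_SC and pre_SC. Points are libraries and bars are the group mean and SD; the 3 post_SC libraries lie below the 3 pre_SC libraries for Hspa5, Hsp90b1, Calr, Pdia4, Pdia6, Sdf2l1 and Ddit3, and Xbp1 is highest in post_Liver (301 to 453 TPM).

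In fat pad tumors, 4 of the 7 listed chaperones and folding enzymes were called lower after paclitaxel. Hspa5, Hsp90b1, Calr and Sdf2l1 fell, by 0.67 to 1.13 on the log2 scale, and Ddit3 fell by 1.17. Pdia4 and Pdia6, both protein disulfide isomerases, were lower in each post_SC library than in any pre_SC library and missed the threshold. Xbp1, Atf4 and Dnajb9 were not called in either direction. The comparison was made in the deposited TPM of the fat pad table with limma on log2(TPM + 1), with p-values adjusted by Benjamini-Hochberg over 13366 genes and calls at an adjusted p under 0.05. It called 5 of the 10 members lower and 0 higher (7 at an unadjusted p under 0.05), where 6.97% of all genes tested were called, 4.29% lower and 2.68% higher. Of the 13366 genes, 3659 had an unadjusted p under 0.05. The median log2 difference of the members was −0.67, against −0.03 over all genes.

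By library, Hspa5 had 566, 501 and 565 TPM in post_SC, against 884, 799 and 909 TPM in pre_SC. The groups did not overlap, and the log2 difference was −0.67 ± 0.10 (SE; limma adjusted p = 0.0168). Calr had 753, 564 and 575 TPM in post_SC, against 1075, 1197 and 1190.0 TPM in pre_SC. Its difference was −0.88 ± 0.13 (adjusted p = 0.0168), with post_SC 1 the highest of the treated libraries and still under the lowest untreated one. Hsp90b1 had 443, 311 and 354 TPM in post_SC, against 697, 515 and 662 TPM in pre_SC. It differed by −0.76 ± 0.17 (adjusted p = 0.0404), and even pre_SC 2, its lowest untreated library, was above post_SC 1, its highest treated one. Sdf2l1 had 13.9, 15.5 and 12.6 TPM in post_SC, against 29.3, 31.2 and 34.7 TPM in pre_SC. At −1.13 ± 0.14 (adjusted p = 0.0115) it had the lowest adjusted p of the members, and both groups were tight.

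The disulfide isomerases missed the threshold. Pdia4 had 128, 97.7 and 81.9 TPM in post_SC, against 159, 154 and 168 TPM in pre_SC, a difference of −0.67 ± 0.17 (limma adjusted p = 0.0554). Pdia6 had 278, 214 and 224 TPM in post_SC, against 341, 329 and 334 TPM in pre_SC, a difference of −0.50 ± 0.12 (adjusted p = 0.0508). Neither set of libraries overlapped. Dnajb9 (ERdj4), a J-domain cofactor of Hspa5 and an Xbp1 target, did not share the direction: it had 43.5, 49.9 and 42.7 TPM in post_SC, against 42.3, 40.8 and 41.5 TPM in pre_SC, a difference of 0.12 ± 0.12 (adjusted p = 0.530). Its groups did not overlap either, with a gap of less than 1 TPM between them. In all, 7 members had every post_SC library below every pre_SC library and 1 had every post_SC library above, where 18.7% and 16% of all genes tested did so in those directions.

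Of the transcription factors only Ddit3 was called in the fat pad. It had 14.6, 24.4 and 28.4 TPM in post_SC, against 38.0, 52.6 and 62.6 TPM in pre_SC, a log2 difference of −1.17 ± 0.27 (limma adjusted p = 0.0477). Mars lies over Ddit3 on the opposite strand, and reads of the 2 genes may not have been separated. Atf4, the factor upstream of it, had 225, 215 and 237 TPM in post_SC, against 219.6, 243 and 299 TPM in pre_SC. The Atf4 groups overlapped, at −0.16 ± 0.13 (adjusted p = 0.459; 95% interval −0.46 to 0.15). The ratio of Ddit3 to Atf4 was 0.0648, 0.114 and 0.120 in post_SC, against 0.173, 0.216 and 0.210 in pre_SC, with no overlap. Xbp1 had 167, 186 and 106 TPM in post_SC, against 114, 148 and 119 TPM in pre_SC. Its groups overlapped, since post_SC 3 lay below all untreated libraries, and the difference was 0.24 ± 0.22 (adjusted p = 0.505; 95% interval −0.27 to 0.74).

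The called differences kept their sign without any 1 library, and the calls depended on which libraries were kept. Leaving out 1 library at a time, the log2 difference was −0.72 to −0.61 for Hspa5, −1.02 to −0.81 for Calr, −0.90 to −0.65 for Hsp90b1, −1.20 to −1.06 for Sdf2l1 and −1.36 to −0.90 for Ddit3. Of the 10 members, 0 were called without pre_SC 1, 2 without pre_SC 2, 0 without pre_SC 3, 6 without post_SC 1, 3 without post_SC 2 and 3 without post_SC 3. Without pre_SC 1 the count over all genes was 78, and without pre_SC 3 it was 94, against 931 with all libraries. Ddit3 lost its call in each of these 6 fits (adjusted p = 0.0510 to 0.160), and also with median of ratios scaling (−1.15, adjusted p = 0.0556) and with no filter on low values (0.0738). Hsp90b1 kept its call without post_SC 1 and lost it in the other 5 fits (0.0614 to 0.144) and with no filter on low values (0.0633). Calr lost it without pre_SC 1 (0.0601), pre_SC 2 (0.0614) or pre_SC 3 (0.0735), Hspa5 without pre_SC 1 (0.0679) or pre_SC 3 (0.0805), and Sdf2l1 without pre_SC 1 (0.0532) or pre_SC 3 (0.0619). In 1 fit over all 16 libraries, which shares the wider spread of the liver libraries, none of the 10 was called in the fat pad comparison (adjusted p = 0.289 for Hspa5, 0.31 for Hsp90b1, 0.204 for Calr, 0.501 for Sdf2l1 and 0.271 for Ddit3).

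Other cell types were measured beside these differences. The carcinoma epithelium list had 0 of 10 genes called in the fat pad comparison (5 at an unadjusted p under 0.05), with a median log2 difference of −0.35. Of 6 endothelial genes 3 were called higher, and their summed level was 185 to 226 TPM in post_SC, against 76.9 to 116 TPM in pre_SC. Jchain, the joining chain that marks plasma cells, fell to 0.357 to 0.701 TPM in post_SC, against 5.13 to 14.3 TPM in pre_SC (limma adjusted p = 0.0114), and was the only one called among 3 tested genes of the plasma and B cell list. The part of these cell types in the chaperone differences was not tested.

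In liver tumors, none of the 10 genes was called after paclitaxel, and the chaperone levels of the groups overlapped. Xbp1 came nearest to the threshold and was higher in every treated library than in any untreated one. The comparison was made in FPKM of the liver table with limma on log2(FPKM + 1) over 13008 genes. It called 0 of the 10 members in either direction (1 at an unadjusted p under 0.05, Xbp1), where 3.64% of all genes tested were called, 2.24% higher and 1.41% lower. Of the 13008 genes, 4123 had an unadjusted p under 0.05. The median log2 difference was 0.10 for the members and 0.37 for all genes tested. That shift of all genes was 0.03 when libraries were scaled by the median of ratios in place of the deposited total.

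Xbp1 had 157, 247, 246, 235 and 154 FPKM in post_Liver, against 119, 117, 107, 139 and 129.6 FPKM in pre_Liver. The groups did not overlap, as for 5.16% of all genes tested in this direction and 1.47% in the other, and the log2 difference was 0.73 ± 0.20 (SE; limma adjusted p = 0.0631; 95% interval 0.30 to 1.17). With median of ratios scaling it was 0.33 (adjusted p = 0.445), and with post_Liver 2 and 3 averaged it was 0.66 (adjusted p = 0.142). The difference was called without pre_Liver 2 (adjusted p = 0.0395), in 1 fit of all 16 libraries (0.74, adjusted p = 0.0193) and with the replicate numbers fitted as a block (adjusted p = 0.0403). Those fits called more genes in all, 3532, 2633 and 3456, against 474 in the main fit. The high libraries were post_Liver 2, 3 and 4, whose neutrophil sums were 20148, 13812 and 10999.5 TPM, against 10803 and 3078 TPM in post_Liver 1 and 5 and at most 1366 TPM in pre_Liver. All 8 neutrophil genes were called higher in this comparison (median log2 difference 3.73), and their part in the Xbp1 difference was not tested.

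Hspa5 had 426, 299.8, 306, 442 and 406 FPKM in post_Liver, against 284, 355, 236, 386 and 383 FPKM in pre_Liver, a difference of 0.20 ± 0.22 (limma adjusted p = 0.485; 95% interval −0.29 to 0.69). Both groups split into lower and higher libraries, and their ranges overlapped. Calr had 621, 411, 417, 739 and 579 FPKM in post_Liver, against 606, 574, 486, 819 and 749.9 FPKM in pre_Liver (−0.24 ± 0.25, adjusted p = 0.465; 95% interval −0.80 to 0.32). Hsp90b1 (−0.21 ± 0.24, adjusted p = 0.504), Pdia4 (−0.14 ± 0.28, adjusted p = 0.704) and Pdia6 (−0.13 ± 0.17, adjusted p = 0.552) likewise had intervals that span 0. With median of ratios scaling Hspa5 was at −0.20, Sdf2l1 at −0.27 and Dnajb9 at −0.31, so that the sign of these 3 small differences turns with the scaling.

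Sdf2l1 and Dnajb9 varied widely among the liver libraries. Sdf2l1 had 48.1, 15.7, 16.3, 97.7 and 44.7 FPKM in post_Liver, against 32.6, 26.0, 17.9, 46.8 and 49.8 FPKM in pre_Liver (0.12 ± 0.50, limma adjusted p = 0.849; 95% interval −0.98 to 1.22). Dnajb9 had 39.8, 19.4, 19.7, 70.2 and 48.6 FPKM in post_Liver, against 26.0, 22.2, 32.7, 49.1 and 42.6 FPKM in pre_Liver (0.08 ± 0.38, adjusted p = 0.874). Libraries post_Liver 2 and 3 were lowest and post_Liver 4 was highest of the treated libraries for both genes. The same 3 libraries had hepatocyte sums of 6975, 5931 and 142369 TPM and Jchain levels of 12.5, 5.10 and 2592 TPM. The part of hepatocyte or plasma cell RNA in these levels was not tested.

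Among the stress factors in liver tumors, Ddit3 had 13.1, 13.8, 15.9, 13.2 and 23.4 FPKM in post_Liver, against 15.6, 12.6, 12.9, 5.13 and 4.84 FPKM in pre_Liver. The groups overlapped: 3 untreated libraries lay at the level of the treated ones, and pre_Liver 4 and 5 lay far below, at 0.69 ± 0.33 overall (limma adjusted p = 0.170; 95% interval −0.04 to 1.41). Atf4 had 86.2, 103, 99.6, 99.5 and 122 FPKM in post_Liver, against 95.2, 91.4, 83.5, 60.4 and 53.1 FPKM in pre_Liver (0.43 ± 0.20, adjusted p = 0.163). Its low libraries were again pre_Liver 4 and 5. These held the highest hepatocyte sums of the 16 libraries (205980.0 and 209680.0 TPM) and the lowest carcinoma epithelium sums (594 and 695 TPM), and the part of this in the stress factor levels was not tested.

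**Figure D2:**
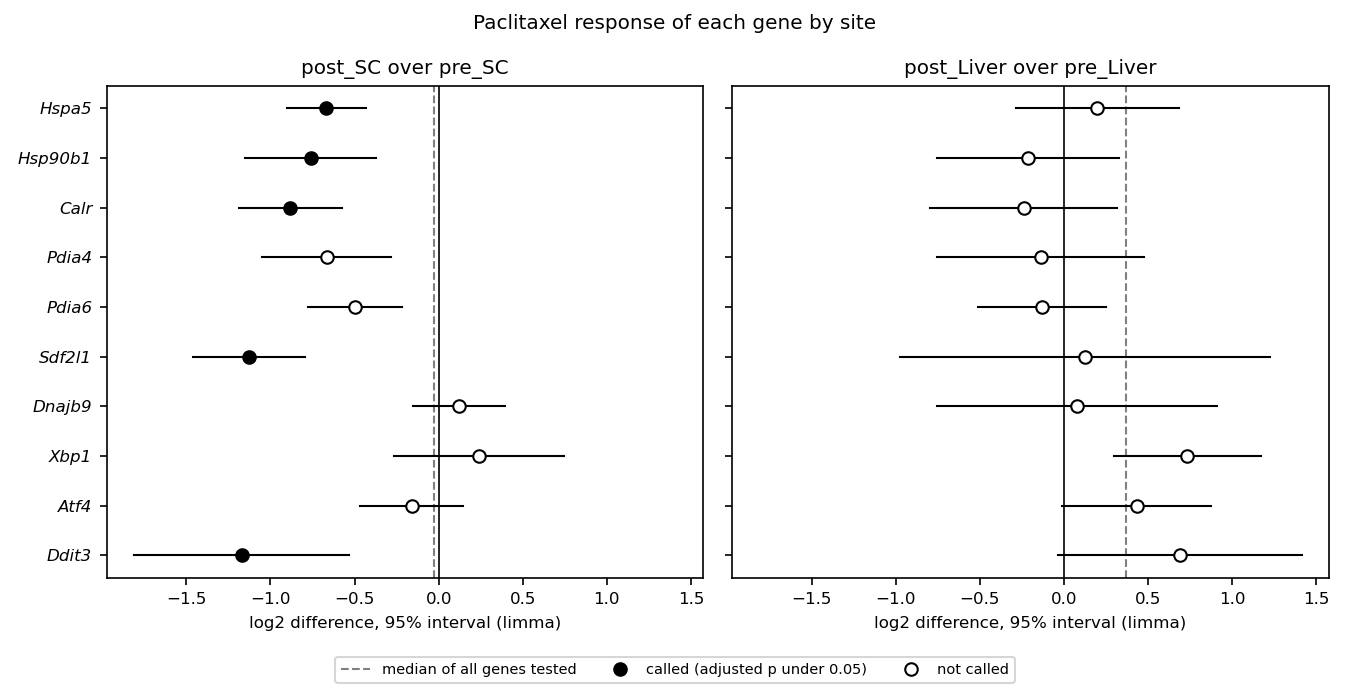
Log2 difference (horizontal axis) of each of the 10 genes after paclitaxel, post_SC over pre_SC (left) and post_Liver over pre_Liver (right), with the 95% interval from limma. Filled points were called at an adjusted p under 0.05, which holds for 5 genes on the left and 0 on the right, and the dashed line is the median of all genes tested (−0.03 and 0.37).

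Whether the response differed between the sites was tested as the interaction of site and treatment in TPM over the shared genes, with all 16 libraries. None of the 10 was called (3 at an unadjusted p under 0.05: Hspa5, Atf4 and Ddit3), where 2.98% of all genes tested were called, 2.19% with a higher and 0.786% with a lower response in liver tumors. Of all 13875 genes tested, 3476 had an unadjusted p under 0.05, so 3 of 10 members is near that share. The median of the members was 0.57 and that of all genes 0.38. Of the 10 genes, Ddit3 had the largest difference between responses, at 1.89 ± 0.51 in log2 units (limma adjusted p = 0.0600; 95% interval 0.80 to 2.99). It was called without pre_Liver 1 (0.0414), without pre_Liver 2 (0.0234), without post_Liver 4 (0.0471) and with the replicate numbers fitted as a block. Those fits called more genes in all, 478, 2599, 915 and 1435, against 413 in the main fit. By size, Sdf2l1 followed with 1.25 ± 0.72 (adjusted p = 0.271; 95% interval −0.28 to 2.78). Hspa5 was at 0.87 ± 0.30 (adjusted p = 0.112) and Atf4 at 0.60 ± 0.27 (adjusted p = 0.193). For Calr the interval of the difference was −0.09 to 1.38 and for Dnajb9 −1.20 to 1.12. So the 5 calls in fat pad tumors and none in liver tumors do not by themselves show a difference between sites for these genes.

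Without paclitaxel, liver tumors had more Xbp1 and less Atf4 and Ddit3 RNA than fat pad tumors, and Sdf2l1 was called higher just under the threshold. Hsp90b1, Calr, Pdia4 and Pdia6 were not called, with log2 differences of 0.02 to 0.10. The values of both tables were set on 1 scale as TPM over 17427 shared genes, each library on its own, and tested with limma over 13648 genes. Of the 10 members 2 were called higher and 2 lower, where 47.4% of all genes tested were called, 14.9% higher and 32.6% lower in pre_Liver. The member counts were not far from those shares. The median difference was 0.07 for the members and −0.51 for all genes. This split over all genes, 2032 higher and 4443 lower, became 3114 higher and 2489 lower with median of ratios scaling, which put the median of all genes at −0.02, and 2496 higher and 3235 lower when libraries were rescaled without the hepatocyte genes.

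Xbp1 had 218, 223, 199, 275 and 246 TPM in pre_Liver, against 114, 148 and 119 TPM in pre_SC. The groups did not overlap (16.6% of all genes tested were so in this direction), and the log2 difference of 0.87 ± 0.17 was called (SE; limma adjusted p = 0.00715). It kept its call in each of 16 alternatives run (adjusted p = 0.00286 to 0.0458). Sdf2l1 had 60.1, 49.6, 33.3, 92.7 and 94.4 TPM in pre_Liver, against 29.3, 31.2 and 34.8 TPM in pre_SC (0.93 ± 0.34, adjusted p = 0.0483). Its groups overlapped at pre_Liver 3, and the call was lost in 12 of 16 alternatives run. They include leaving out pre_SC 1, 2 or 3 or pre_Liver 1, 4 or 5 (adjusted p up to 0.138), a pseudocount of 0.1 (0.0501), no filter on low values (0.0568), 1 fit of all 16 libraries (0.126) and the untreated table as deposited (0.35, adjusted p = 0.0516). Dnajb9 had 42.4 to 97.2 TPM in pre_Liver, all above the 40.8 to 42.3 TPM of pre_SC, and was not called (0.58 ± 0.28, adjusted p = 0.101).

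Ddit3 had 28.7, 24.0, 24.0, 10.2 and 9.18 TPM in pre_Liver, against 38.1, 52.6 and 62.7 TPM in pre_SC. Its log2 difference was −1.47 ± 0.40 (limma adjusted p = 0.0222), and the groups did not overlap, as for 34.8% of all genes tested in this direction. Atf4 had 175, 174, 155, 119.6 and 101 TPM in pre_Liver, against 219.9, 243 and 299 TPM in pre_SC, and fell by 0.83 ± 0.23 (adjusted p = 0.0237). With median of ratios scaling Ddit3 was at −0.97 (adjusted p = 0.0310) and Atf4 at −0.30 (adjusted p = 0.137), and both calls were lost without pre_SC 1, without pre_SC 2 or without pre_SC 3. Hspa5 had 439 to 764 TPM in pre_Liver, all below the 799 to 911 TPM of pre_SC, at −0.50 ± 0.23 (adjusted p = 0.0981), and its sign turned with median of ratios scaling (0.04). Hepatocyte genes were all called higher in pre_Liver (30 of 30), 9 of 10 carcinoma epithelium genes were called lower (median −2.57), and their part in the member differences was not tested.

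The deposited table of untreated libraries adds 1 offset per gene that pre_Liver 1 to 3 share with the pre_SC libraries and pre_Liver 4 and 5 do not. Restricted to the libraries that share it (3 against 3), Xbp1 was at 0.75 (limma adjusted p = 0.0140), Ddit3 at −0.95 (0.0153), Atf4 at −0.58 (0.0362) and Hspa5 at −0.68 (0.0386), which was then called. Sdf2l1 was at 0.53 and lost its call (0.101).

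After treatment, the site difference of the stress factors Atf4 and Ddit3 was not called, and Xbp1 and Sdf2l1 were again higher in liver tumors. Of the 10 members 2 were called higher and 0 lower in post_Liver, where 9.41% of all 13952 genes tested were called, 6.62% higher and 2.8% lower. The median log2 difference was 0.54 for the members and −0.08 for all genes. Xbp1 had 307, 453, 451, 447 and 301 TPM in post_Liver, against 167, 186 and 106 TPM in post_SC, and rose by 1.36 ± 0.25 (SE; limma adjusted p = 0.0116). Its groups did not overlap, as for 14.1% of all genes tested in this direction, and the call was lost without post_SC 3 (1.12, adjusted p = 0.0590) and kept in the other 14 alternatives run, among them post_Liver 2 and 3 averaged (1.30, adjusted p = 0.0196). Sdf2l1 had 94.2, 28.8, 30.0, 186 and 87.6 TPM in post_Liver, against 13.9, 15.5 and 12.7 TPM in post_SC. It rose by 2.18 ± 0.58 (adjusted p = 0.0480) with every liver library above every fat pad library. That call was lost without post_SC 1, 2 or 3 or post_Liver 1 or 5 (adjusted p up to 0.178) and in 4 other alternatives, median of ratios scaling (2.26, adjusted p = 0.0655) among them.

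Calr (0.71 ± 0.26, limma adjusted p = 0.121), Hsp90b1 (0.65 ± 0.26, adjusted p = 0.149), Pdia6 (0.45 ± 0.19, adjusted p = 0.165) and Hspa5 (0.37 ± 0.21, adjusted p = 0.268) had positive differences in post_Liver over post_SC that were not called. Ddit3 was at 0.42 ± 0.28 (adjusted p = 0.337; 95% interval −0.21 to 1.05) and Atf4 at −0.23 ± 0.16 (adjusted p = 0.348). Neutrophil genes were called higher in post_Liver for 7 of 8 and hepatocyte genes for 28 of 30, and their part in the Xbp1 and Sdf2l1 differences was not tested. The site and treatment comparisons share libraries, so their values are not independent of each other.

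**Figure D3:**
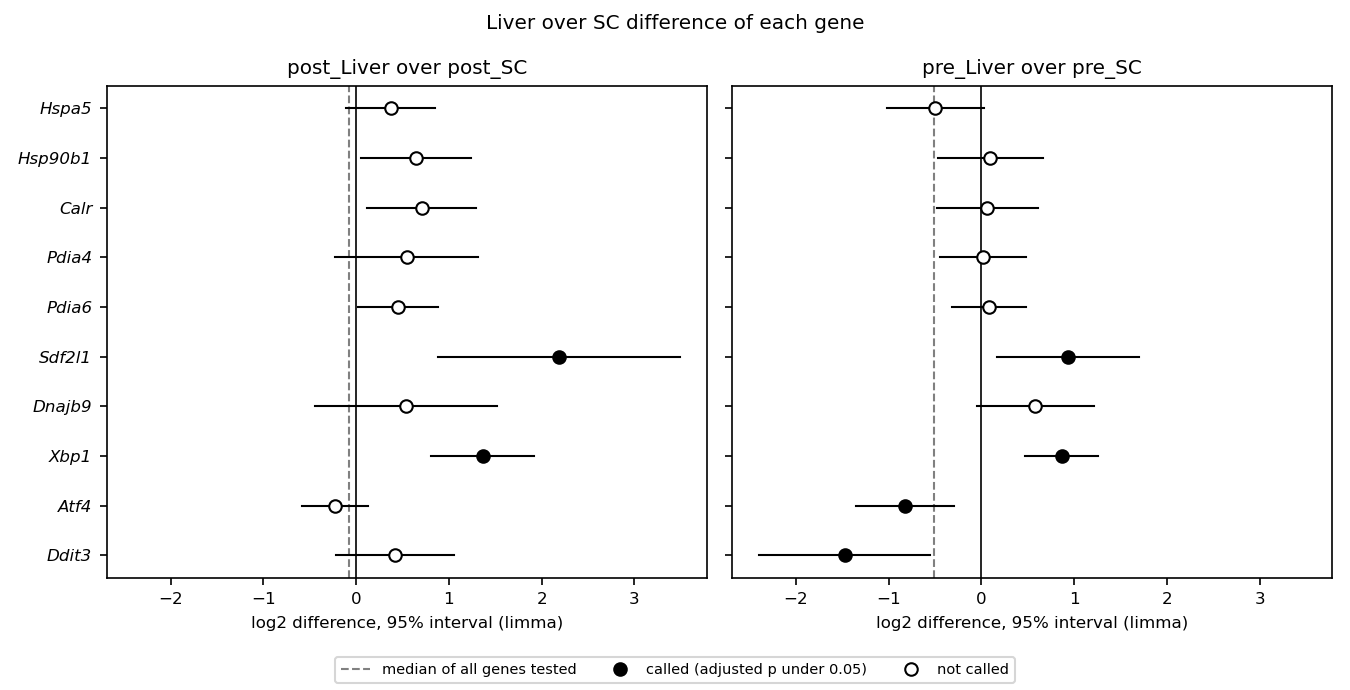
Log2 difference (horizontal axis) of each of the 10 genes between sites, post_Liver over post_SC (left) and pre_Liver over pre_SC (right), in TPM over shared genes with the 95% interval from limma. Filled points were called: Sdf2l1 and Xbp1 on the left, and Sdf2l1, Xbp1, Atf4 and Ddit3 on the right, where Atf4 and Ddit3 lie below 0; the call of Atf4 ends with median of ratios scaling.

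Across libraries the members did not move as 1 block. The ratio of Xbp1 to Hspa5 was 0.368 to 0.825 in post_Liver (median 0.531), 0.330 to 0.453 in pre_Liver (median 0.360), 0.188 to 0.371 in post_SC (median 0.295) and 0.128 to 0.185 in pre_SC (median 0.131). The untreated sites did not overlap in it, and neither did the fat pad groups. It was highest in post_Liver 2 and 3 (0.825 and 0.804), the libraries with the lowest chaperone sums of that group (2142 and 2199 TPM). Hspa5 is part of both measures, so they are not independent, and these libraries were close to each other, as given above. The ratio of Sdf2l1 to Hspa5 was 0.0523 to 0.221 in post_Liver, 0.0733 to 0.130 in pre_Liver, 0.0224 to 0.0309 in post_SC and 0.0332 to 0.0391 in pre_SC, so that each liver library was above each fat pad library. For Ddit3 over Atf4 the ratio was 0.132 to 0.192 in post_Liver, 0.0849 to 0.164 in pre_Liver, 0.0648 to 0.120 in post_SC and 0.173 to 0.216 in pre_SC. These ratios within a library do not depend on its scaling, and no test was run on them.

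**Figure D4:**
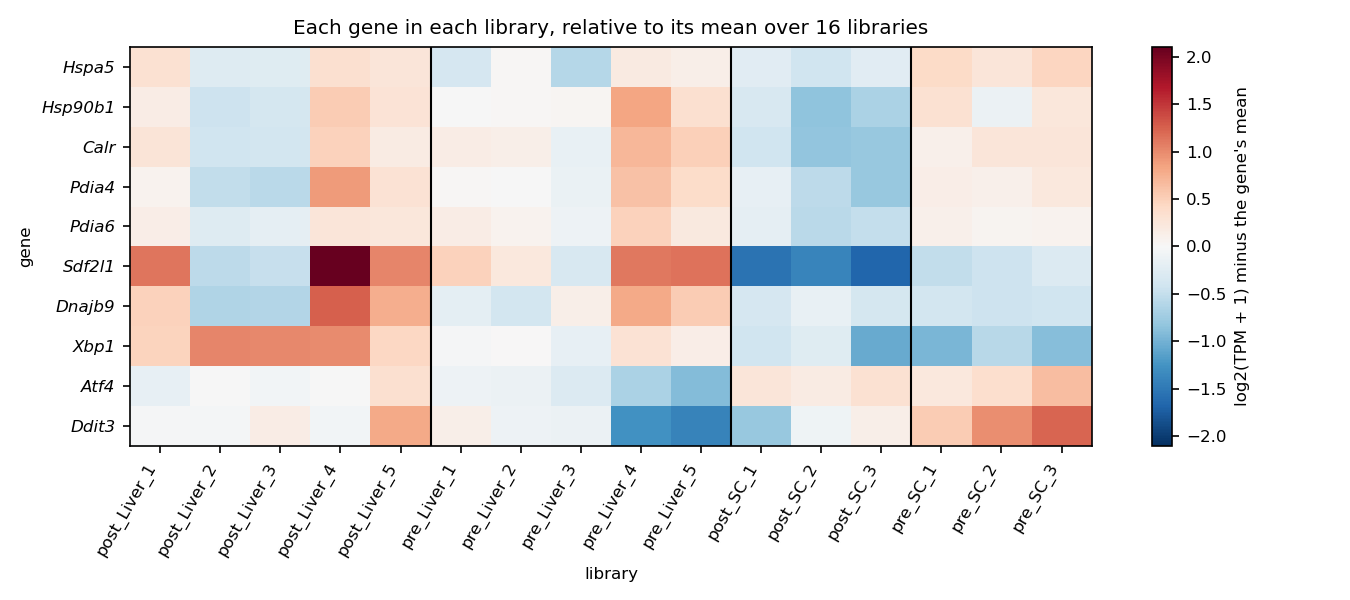
Level of each gene (rows) in each of the 16 libraries (columns) as log2(TPM + 1) minus the gene's mean over the libraries, with red above and blue below the mean. Sdf2l1 is lowest in the 3 post_SC libraries, Xbp1 is above its mean in all 5 post_Liver libraries, and Ddit3 is highest in pre_SC 2 and 3 and lowest in pre_Liver 4 and 5.

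The wider pathway was read from 5 further gene lists, beside the 4.29% of all genes called lower and 2.68% called higher in fat pad tumors. There, the list of other folding factors had 2 of 22 genes called lower and 0 higher (median log2 difference −0.37, all genes −0.03). They were Ero1l, the oxidase that recharges protein disulfide isomerases (−1.81 ± 0.23, limma adjusted p = 0.0115), and Hyou1, an Hsp110-type partner of Hspa5 (adjusted p = 0.0168). Ero1l had 31.3, 30.0 and 54.0 TPM in post_SC, against 150.3, 122 and 126 TPM in pre_SC. Hyou1 had 33.8, 30.7 and 25.4 TPM in post_SC, against 54.8, 62.2 and 65.5 TPM in pre_SC, and neither gene overlapped between the groups. The list of genes downstream of Atf4 had 4 of 21 called lower and 0 higher (median −0.40). They were Vegfa (−1.09 ± 0.16, adjusted p = 0.0168), which is also induced by low oxygen, and the leucine zipper factor Cebpb (−0.84 ± 0.15, adjusted p = 0.0239). The others were the mitochondrial folate enzyme Mthfd2 (−1.18 ± 0.23, adjusted p = 0.0313) and Atf5 (−1.07 ± 0.23, adjusted p = 0.0378). None of 7 sensor genes (2 at an unadjusted p under 0.05), 12 degradation genes (3) and 20 translocation and transport genes (2) was called in this comparison, and their medians were −0.11, −0.01 and 0.05.

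In liver tumors, limma called 1 gene of these lists after paclitaxel, where 2.24% of all genes were called higher and 1.41% lower. Atf5, a leucine zipper factor that is also abundant in hepatocytes, had 114, 95.5, 82.5, 234 and 182 TPM in post_Liver, against 345, 273, 534, 429 and 469 TPM in pre_Liver, a difference of −1.59 ± 0.31 on the log2 scale (adjusted p = 0.0219). Atf5 was called lower in fat pad tumors too, as given above, with 40.0 to 61.1 TPM in post_SC, against 76.4 to 129 TPM in pre_SC. The medians were 0.01 for folding factors, 0.32 for sensors, 0.60 for the Atf4 list, 0.12 for degradation and 0.19 for translocation and transport, against 0.37 for all genes. The hepatocyte list had 0 of 30 genes called in the same comparison (19 at an unadjusted p under 0.05) with a median of −2.20, and its part in the Atf5 difference was not tested. Between the responses, limma called Ero1l (2.49 ± 0.42, adjusted p = 0.00826) and the ATF6 relative Atf6b (1.11 ± 0.25, adjusted p = 0.0329) among all genes of the 5 lists, where 2.19% of all genes tested were called with a higher and 0.786% with a lower response in liver tumors. Atf6b had 43.4 to 67.2 TPM in post_Liver, 30.0 to 43.5 TPM in pre_Liver, 24.1 to 34.2 TPM in post_SC and 42.7 to 47.9 TPM in pre_SC.

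**Figure D5:**
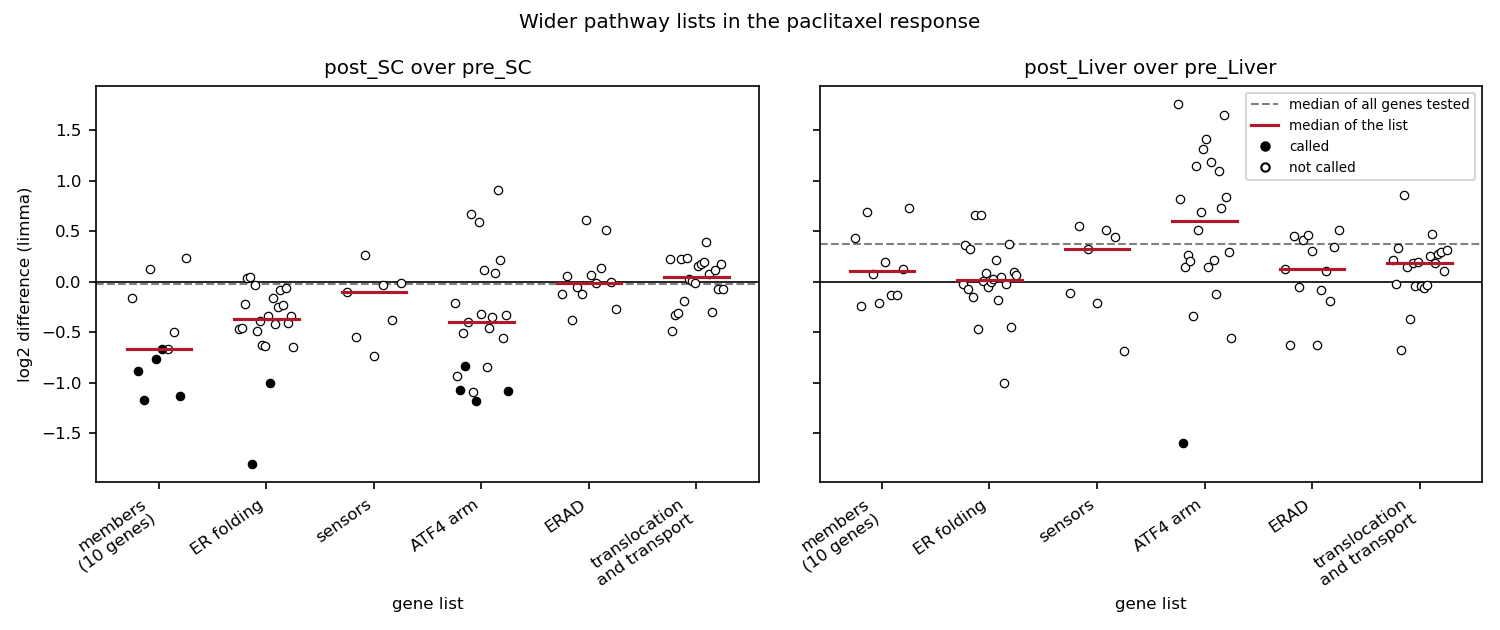
Log2 difference (vertical axis) of the 10 genes and of the 5 further lists (horizontal axis), post_SC over pre_SC (left) and post_Liver over pre_Liver (right). Each point is a gene, filled where called, the red bars are list medians and the dashed line is the median of all genes tested (−0.03 and 0.37); the members' median is −0.67 on the left and 0.10 on the right.

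Between the untreated sites, 14.9% of all genes were called higher and 32.6% lower in pre_Liver, and the list counts stand beside these shares. Of 13 degradation genes 5 were called higher and 1 lower in pre_Liver (median 0.32, all genes −0.51), led by Derl3 (2.25 ± 0.52, limma adjusted p = 0.0128), a channel component found in secretory cells, and by the membrane adaptor Herpud1 (1.98 ± 0.46, adjusted p = 0.0131). Herpud1 had 139, 96.7, 207, 352 and 430.2 TPM in pre_Liver, against 48.7, 55.4 and 55.4 TPM in pre_SC. Of 22 folding factors 3 were called higher and 3 lower, among them Pdia5 (1.93 ± 0.31, adjusted p = 0.00265), Fkbp11 (0.66 ± 0.16, adjusted p = 0.0150) and, in the other direction, Ero1l (−2.13 ± 0.33, adjusted p = 0.00222). Of 22 genes of the Atf4 list 4 were called higher and 6 lower, with Atf5 higher (1.91 ± 0.27, adjusted p = 0.00136) and Ddit4, an inhibitor of mTORC1, and Slc7a11, the cystine transporter, lower (−2.63 ± 0.44, adjusted p = 0.00334, and −1.68 ± 0.30, adjusted p = 0.00423). Among 7 sensor genes, Tmbim6, a membrane protein that restrains IRE1, was higher (1.45 ± 0.26, adjusted p = 0.00471), and the site proteases that cut ATF6, Mbtps2 (−1.46 ± 0.35, adjusted p = 0.0140) and Mbtps1 (−1.05 ± 0.28, adjusted p = 0.0198), were lower. Of 20 translocation and transport genes Sec24d was higher (0.80 ± 0.28, adjusted p = 0.0466) and the retrieval receptor Kdelr3 lower (−1.14 ± 0.36, adjusted p = 0.0334).

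Between the treated sites, 6.62% of all genes were called higher and 2.8% lower in post_Liver. Gdf15, a stress cytokine, was at 5.92 to 14.7 TPM in post_Liver, against 0.0939 to 0.189 TPM in post_SC (3.40 ± 0.30 on the log2(TPM + 1) scale, limma adjusted p = 0.000617). Trib3, a pseudokinase induced by Ddit3, was at 4.55 to 14.5 TPM in post_Liver, against 31.0 to 37.8 TPM in post_SC (−1.65 ± 0.33, adjusted p = 0.0164), and Nupr1, a stress-inducible chromatin protein, was lower as well (−2.19 ± 0.48, adjusted p = 0.0235). These differences were not particular to treated tumors. Between untreated sites limma also called Gdf15 higher in liver tumors (2.30 ± 0.48, adjusted p = 0.00856). It called Trib3 (−2.31 ± 0.45, adjusted p = 0.00633) and Nupr1 (−2.94 ± 0.68, adjusted p = 0.0127) lower there. The part of host cells in these differences was not tested. In all, the Atf4 list had 4 of 22 called higher and 2 lower, with a median of 0.47. Fkbp11 (1.37 ± 0.23, adjusted p = 0.00809) and Atf6b (0.77 ± 0.20, adjusted p = 0.0492) were called higher, and none of 13 degradation genes (2 at an unadjusted p under 0.05) and none of 20 translocation and transport genes (5) was called.

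Likeness of pattern was measured as the root mean square difference of log2(TPM + 1), centred on each gene's mean, over the 16 libraries and among 11436 genes with a mean of at least 5 TPM. Values were centred and not scaled, so the measure also reflects how widely each gene varied, and not direction alone. Nearest to Hspa5 were Zdhhc5 (0.163), Depdc5 (0.172), Arl1 (0.173), Pdia3 (0.180) and Rpn2 (0.182). Of these, Pdia3 is a disulfide isomerase and Rpn2 a subunit of the oligosaccharyltransferase of the same compartment. Among the members, Pdia6 was nearest to Hspa5 at rank 108 (0.251), Calr was at rank 430 and Sdf2l1 at rank 8939 (0.929). Nearest to Xbp1 were Rab27a (0.265), Arap3 (0.271), Smim1 (0.302), Asrgl1 (0.325) and Taldo1 (0.335), and nearest to Ddit3 were Jak3 (0.276), Nfkb2 (0.308), Pfkp (0.318), Sbno2 (0.334) and Srf (0.336). Atf4 was at rank 155 for Ddit3 (0.436). All of these values share the same 16 libraries and their mixture of cell types.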

How the data were processed

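Poly(A) RNA of 16 suspensions of 4T1 tumors was sequenced by the authors. Per the submitters' processing notes, fastp and StringTie were used with GRCm38/mm10, in roles not stated. The steps and the strand setting are not given in the sources used here. The files name no unit. The liver table, deposited by the authors with values rounded to 2 decimals, was read as FPKM (column sums 511645 to 547765). The fat pad table holds TPM as deposited (each column sums to 1000000). A table of untreated libraries, deposited by the authors, holds TPM plus 1 offset per gene and set of libraries, with 2382 genes below 0. Within a set its differences matched TPM to 7.76e-06, and it was used only as an alternative. Depth cannot be recovered from these units, so no counting interval is given.

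The treatment comparisons used each site's own table. Site comparisons and the interaction used TPM computed over the 17427 shared genes. Genes with a mean of at least 1 were tested with limma 3.58.1 (R 4.3.3; lmFit, eBayes with trend) on log2(value + 1), with Benjamini-Hochberg adjustment over all genes tested, a fold change being on that scale, which understates low genes. The code was tested on simulated data. Names turned into dates (22 in the fat pad and 24 in the untreated table) and 1 repeated name were left out. Gene positions are those of GENCODE on GRCm38; Ddit3 overlaps Mars and Pdia6 overlaps Atp6v1c2 on the opposite strand, so reads of these pairs may not be separated.

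Members, lists and tests were chosen with earlier results of these data known. Named besides the members were up to 3 called genes of each pathway list with the lowest adjusted p in a comparison, the 5 genes nearest to Hspa5, Xbp1 and Ddit3, and the markers Alb, Epcam, Krt8, Jchain and S100a8. Alternatives were the pseudocount (0.1), no filter, median of ratios scaling, rescaling without hepatocyte genes, each library left out, the replicate number as a block, 1 fit of all 16 libraries, the untreated libraries that share an offset, and post_Liver 2 and 3 averaged.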

Additional observations from a re-analysis of the deposited data

Results flagged for a closer look

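Of 20 groups of libraries checked (each of the 10 genes in post_Liver and in pre_Liver), 1 held a library far from the rest. Ddit3 had 45.9 TPM in post_Liver 5, against at most 29.1 TPM in the other 4 post_Liver libraries, a gap of 0.75 of the group's range where the critical value for 5 libraries is 0.71. Chance alone flags about 1 in 20 groups. Atf4 was also highest there (238 TPM, against 169 to 189 TPM in the other 4), and that library had the lowest neutrophil sum of its group (3078 TPM). It had the highest macrophage (7487 TPM), fibroblast (6476 TPM), T cell (194 TPM) and endothelium (152 TPM) sums of its group. The part of these cell types in the Ddit3 level was not tested. Without post_Liver 5 the site difference of Ddit3 after treatment was 0.26 on the log2 scale (limma adjusted p = 0.533), against 0.42 with it (0.337).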

How the results depend on the processing

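Depth is unknown, so low genes such as Sdf2l1 in fat pad tumors carry an unstated counting error. Groups of 3 limit the fat pad calls, and hepatocyte genes take a varying share of the total in liver libraries. Of the recalculated member differences, 733 kept direction and side of the threshold, 57 lost a call, 12 gained one and 38 turned sign. The 733 include differences that were not called and stayed so, while only a called difference could lose its call. Between untreated sites, called differences lost the call in 0 of 16 alternatives for Xbp1 and in 12 of 16 for Sdf2l1, the extremes over all comparisons. Of the recalculated counts, 94 stayed within 1.5 times and 74 did not. The cause was not tested. Some of these settings use fewer libraries or pool the spread of the liver libraries.

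Of the 10 members, with no filter on low values 3 were called in fat pad tumors (5 with it) and 1 between treated sites (2 with it). Median of ratios scaling and rescaling without the hepatocyte list each left 1 between treated sites. The fit of all 16 libraries called 0 in fat pad tumors and 1 in liver tumors, Xbp1 (0.74, adjusted p = 0.0193). Over all genes, that fit called 109 in fat pad tumors (931 in the separate fit), 2633 in liver tumors (474) and 2093 between treated sites (1313). Median of ratios scaling called 221 in liver tumors. With post_Liver 2 and 3 averaged the counts were 159 in liver tumors and 260 for the difference between responses (413). Leaving out 1 library gave 0 to 6 members and 78 to 775 genes in fat pad tumors, 0 to 1 and 117 to 3532 in liver tumors, 1 to 5 and 2134 to 9341 between untreated sites (6475), 0 to 2 and 412 to 1527 between treated sites, and 0 to 1 and 92 to 2599 for the difference between responses.

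Sign changes were limited to differences that were not called. In liver tumors, median of ratios scaling gave −0.20 for Hspa5, −0.27 for Sdf2l1 and −0.31 for Dnajb9, and rescaling without the hepatocyte list gave −0.0023 for Sdf2l1 and −0.047 for Dnajb9. Between untreated sites, median of ratios scaling gave 0.037 for Hspa5, the libraries that share an offset gave −0.13 for Hsp90b1, −0.16 for Calr, −0.20 for Pdia4 and −0.038 for Pdia6, and the untreated table as deposited gave −0.13, −0.14, −0.18 and −0.048 for the same genes. For the difference between responses, median of ratios scaling gave −0.098 for Pdia6, and averaging post_Liver 2 and 3 gave 0.17 for Dnajb9. With 1 library left out, the liver response spanned −0.35 to 0.0030 for Pdia4, −0.24 to 0.41 for Sdf2l1 and −0.17 to 0.28 for Dnajb9, the untreated site difference −0.047 to 0.18 for Hsp90b1, −0.044 to 0.17 for Calr and −0.096 to 0.095 for Pdia4, and the difference between responses −0.29 to 0.18 for Dnajb9.

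The replicate numbers gave no pairing that held for all libraries. Correlations of deviations between same-numbered libraries were −0.16 to 0.13 in the fat pad, −0.12 to 0.75 in the liver, −0.078 to −0.0019 between untreated and −0.052 to 0.053 between treated sites. In the liver, replicates 2 (0.677) and 4 (0.746) each correlated best with their own number, and replicates 1, 3 and 5 (−0.120, −0.0140 and 0.261) did not. Fitted as a replicate block, the numbers gave 4 called members in fat pad tumors, 1 in liver tumors (Xbp1, adjusted p = 0.0403), 2 between untreated sites, 1 between treated sites and 1 for the difference between responses (Ddit3, adjusted p = 0.0453), and over all genes 336, 3456, 3598, 948 and 1435. Between sites the block drops liver libraries 4 and 5, which have no partner, and gave −0.13 for Hsp90b1, −0.16 for Calr, −0.20 for Pdia4 and −0.038 for Pdia6 between untreated sites.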

Other observations

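Values are given here for the other genes whose promoter window holds the endoplasmic reticulum stress element. Of 37 genes with the element in a window, 11 that are not members were tested in fat pad tumors, and limma called 0 higher and 0 lower (median log2 difference −0.0044, against −0.03 for 10422 genes with a window and no element, of which 436 were called lower). In liver tumors 13 were tested with 0 calls (median 0.27, against 0.37). With 6.97% of all genes called in fat pad tumors and 3.64% in liver tumors, counts of 0 among 11 and 13 genes are near the background. Between untreated sites 3 of 14 were called higher and 1 lower in pre_Liver (median 0.07), against 14.5% higher and 32.4% lower among genes with a window and no element (median −0.51).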
